A study of Mus musculus with 20 samples.

Results

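The metallothionein genes *Mt1*, *Mt2* and *Mt3* were examined in the mouse utricle, the otolith organ of the inner ear that senses linear acceleration. They were taken from the deposited count tables by name, as 3 of the 25655 genes listed there. The study asked how the loss of estrogen and its replacement change the utricle and its otoconia, the calcium carbonate crystals above the sensory epithelium. All 4 groups were C57BL/6J females operated on at 8 weeks of age and carrying a pellet under the skin, and the utricles were taken 4 weeks later. The sham + v group had a sham operation and a vehicle pellet, and the OVX + v group had its ovaries removed (OVX) and a vehicle pellet. The OVX + E2 group was ovariectomized and received estradiol (50 µg in 60 days), and the OVX + RAL group was ovariectomized and received raloxifene, a selective estrogen receptor modulator (2.4 mg in 60 days). Each group had 5 libraries, numbered 1 to 5 (sham + v), 6 to 10 (OVX + v), 11 to 15 (OVX + E2) and 16 to 20 (OVX + RAL), and sets of 4 group values below keep this order. The sham-operated mice kept their cycle, and its stage at sampling was not used to group them. Whether each library came from a separate mouse is not stated in the labels, so p-values measure the spread between these libraries only.

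Metallothioneins are small proteins rich in cysteine that bind zinc and copper in the cell and scavenge reactive oxygen species. *Mt1* and *Mt2* are made in most tissues and are induced through metal response elements by the transcription factor MTF-1, and also by glucocorticoids and oxidative stress. *Mt3*, first described as a growth inhibitory factor of the brain, is found mainly in neurons and astrocytes and is induced much less by metals, and *Mt4* belongs to stratified squamous epithelium.

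The 4 genes lie side by side on chromosome 8 of GRCm39, on the plus strand, in the order *Mt4*, *Mt3*, *Mt2* and *Mt1*. In the deposited tables *Mt1* (ENSMUSG00000031765) spans 94905710 to 94906955, *Mt2* (ENSMUSG00000031762) 94899292 to 94900196 and *Mt3* (ENSMUSG00000031760) 94879235 to 94880774. *Mt2* and *Mt1* are separated by 5513 bases, and *Mt3* and *Mt2* by 18517. In GENCODE vM39 the long noncoding RNA *Gm45774* overlaps *Mt2* on the minus strand, and since the use of strand in the counting is not stated, reads of the 2 genes cannot be told apart. The paralogs are distinct at their 3′ ends, where this library kit reads. Of the 338 windows of 63 nucleotides (the longest read after trimming) in the last 400 nucleotides of each member's canonical transcript, 0 occurred in another metallothionein, either exactly or with up to 2 mismatches. Sharing of reads of this full length between the members was therefore not detectable. Shorter reads, kept down to 20 nucleotides, were not examined. The longest stretch shared exactly was 20 nucleotides (*Mt2* with *Mt3*).

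The promoters are shown because the members differ in the control regions by which metals act on them. The RefSeq promoter table (build GRCm38.p6) holds 300 bases for each gene, from 250 before to 50 after the RefSeq start, and each matched GRCm39 exactly once, at chr8:94905467-94905766 (*Mt1*), chr8:94898996-94899295 (*Mt2*) and chr8:94878985-94879284 (*Mt3*). They are given 5′ to 3′ on the plus strand. Capitals mark the core of the metal response element, searched as TGCACNC or TGCGCNC on both strands.
Mt1 promoter: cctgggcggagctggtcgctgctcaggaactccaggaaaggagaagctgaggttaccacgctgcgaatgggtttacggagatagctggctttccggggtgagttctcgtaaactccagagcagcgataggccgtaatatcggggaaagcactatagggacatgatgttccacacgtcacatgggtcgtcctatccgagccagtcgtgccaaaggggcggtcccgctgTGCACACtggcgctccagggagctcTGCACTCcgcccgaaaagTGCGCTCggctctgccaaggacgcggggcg
Mt2 promoter: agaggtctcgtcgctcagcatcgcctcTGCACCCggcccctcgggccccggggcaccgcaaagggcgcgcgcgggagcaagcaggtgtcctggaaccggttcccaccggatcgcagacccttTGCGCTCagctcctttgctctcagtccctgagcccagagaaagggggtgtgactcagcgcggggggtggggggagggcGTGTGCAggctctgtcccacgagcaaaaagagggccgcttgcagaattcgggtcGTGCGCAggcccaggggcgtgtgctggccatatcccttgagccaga
Mt3 promoter: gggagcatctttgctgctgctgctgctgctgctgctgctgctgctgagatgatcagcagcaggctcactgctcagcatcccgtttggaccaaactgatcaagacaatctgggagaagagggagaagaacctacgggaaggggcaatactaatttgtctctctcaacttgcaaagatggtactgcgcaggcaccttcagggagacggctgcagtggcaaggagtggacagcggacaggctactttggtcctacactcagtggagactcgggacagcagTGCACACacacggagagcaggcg
The *Mt1* window holds 3 matches, whose first bases lie at -23, 3 and 21 from the start, and the *Mt2* window holds 4, at -223, -128, -50 and 5, the last 2 of them on the minus strand. The *Mt3* window holds 1, at 28. Among the 32851 promoters given by RefSeq, 25.7% hold at least 1 match, 1.97% at least 3 and 0.517% at least 4. The window of *Mt1* also has 1 match to the glucocorticoid response element, searched as GNACA and TGTNC with 3 bases between them, at -94 (0.475% of all promoters), and that of *Mt2* has 1 match to the antioxidant response element core TGACNNNGC at -79 (12.4% of all promoters), which overlaps no match of the metal response element. The palindrome of the estrogen response element, GGTCA and TGACC with 3 bases between them, has no match in these 3 windows and is held by 0.0700% of all promoters. Positions and numbers of matches depend on the RefSeq start that sets each window. For *Mt2* this start lies upstream of the gene start in the deposited tables (94899292), which is near the end of the window (94899295). All 4 matches of *Mt2* thus lie before that gene start. Windows around other starts were not searched. These are matches of letters, and binding was not measured.

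The libraries held 1123053 to 2081747 counts, with the lowest totals in the OVX + E2 group (1123053 to 1507667). Genes with a count numbered 8651 to 10625, 10004 to 10694, 7427 to 9680 and 10103 to 10290 per library in the 4 groups. In this number OVX + E2 overlapped neither OVX + v nor OVX + RAL. Hair cell, supporting cell, dark cell, fibrocyte and Schwann cell markers were present in every group. The 5 supporting cell markers summed to 3226 to 6142 CPM (counts scaled to the library total), and the 6 hair cell markers to 330.5 to 1262 CPM. The 5 neuronal markers summed to 67.7 to 396 CPM and the 4 astrocyte markers to 226 to 1076 CPM, of which *Slc1a3* carried nearly all (group means 397 to 642 CPM), while *Aqp4* averaged 2.89 to 10.3 CPM, *Aldh1l1* 0.919 to 6.93 CPM and *Gfap* 0 to 0.561 CPM. The 5 melanocyte markers summed to 328 to 1621 CPM, the 4 red cell markers to 218 to 2578 CPM and the 4 mucosal gland markers, 2 of which had no count, to 0 to 1738 CPM. In such bulk tissue, fewer cells of a type and less RNA per cell cannot be told apart.

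*Mt1* and *Mt2* were among the abundant transcripts of the utricle, and *Mt3* was present at a low level. *Mt1* averaged 496 CPM (SD 147, n = 20) and ranked 229 among all genes by CPM, *Mt2* averaged 483 CPM (SD 203) and ranked 236, and *Mt3* averaged 27.6 CPM (SD 15.5) and ranked 5977. These ranks are of counts from transcript ends, without correction for length. *Mt4* had 0 counts in all 20 libraries, which allows a level of up to 1.44 CPM in the largest library and 2.67 CPM in the smallest, where 3 counts are the limit and counting error alone is covered. *Mt1* had 329 to 1306 counts in a library, *Mt2* 228 to 1648 and *Mt3* 7 to 100.

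*Mt1* was at 566, 393, 591, 730.2 and 649 CPM in sham + v libraries 1 to 5. In OVX + v libraries 6 to 10 it was at 643, 360.1, 334, 426 and 229 CPM. Libraries 6 and 9 lay within the range of the sham + v libraries, and libraries 10 and 8 of OVX + v held the lowest values of *Mt1* in the series. The *Mt1* values of OVX + E2 libraries 11 to 15 were 413, 359, 811, 407 and 505 CPM. OVX + RAL libraries 16 to 20 had 442, 625, 530.5, 388 and 521 CPM. The OVX + RAL group was the most even, and library 13 of OVX + E2 held the highest value of *Mt1* in the series. The means were 586 ± 125, 399 ± 154, 499 ± 182 and 501 ± 90.7 CPM (SD, n = 5 each) in the order of the groups.

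*Mt2* was at 495, 270.3, 364, 769 and 657 CPM in sham + v libraries 1 to 5. The OVX + v libraries 6 to 10 had 502, 302, 214, 399 and 159 CPM. The same libraries, 10 and 8, held the lowest values of *Mt2*. For OVX + E2 libraries 11 to 15 the *Mt2* values were 487, 671, 899, 357 and 562 CPM. OVX + RAL libraries 16 to 20 had 464, 486, 241, 566 and 792 CPM. Libraries 13 of OVX + E2 and 20 of OVX + RAL were the highest, and each of these groups also reached down into the OVX + v range. The means were 511 ± 205, 315 ± 139, 595 ± 205 and 509.7 ± 198 CPM (SD, n = 5 each), in the same order of groups. By the mean, OVX + v was the lowest group for *Mt1* and for *Mt2*, while the order of the other 3 groups differed between the genes.

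*Mt3* was at 30.7, 18.4, 53.9, 53.7 and 4.64 CPM in sham + v libraries 1 to 5. OVX + v libraries 6 to 10 had 62.3, 22.6, 19.8, 16.8 and 22.3 CPM of *Mt3*. The sham + v libraries ran from the lowest value of the series to near the highest, and library 6 stood apart in an otherwise even OVX + v group. OVX + E2 libraries 11 to 15 had 16.6, 20.4, 10.4, 36.5 and 14.7 CPM. OVX + RAL libraries 16 to 20 had 37.5, 37.7, 23.5, 33.6 and 15.4 CPM. The means were 32.3 ± 21.7, 28.8 ± 18.9, 19.7 ± 10.04 and 29.5 ± 9.80 CPM (SD, n = 5 each), so that OVX + E2 was the lowest group for *Mt3*, within the spread of the others.

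**Figure D1:**
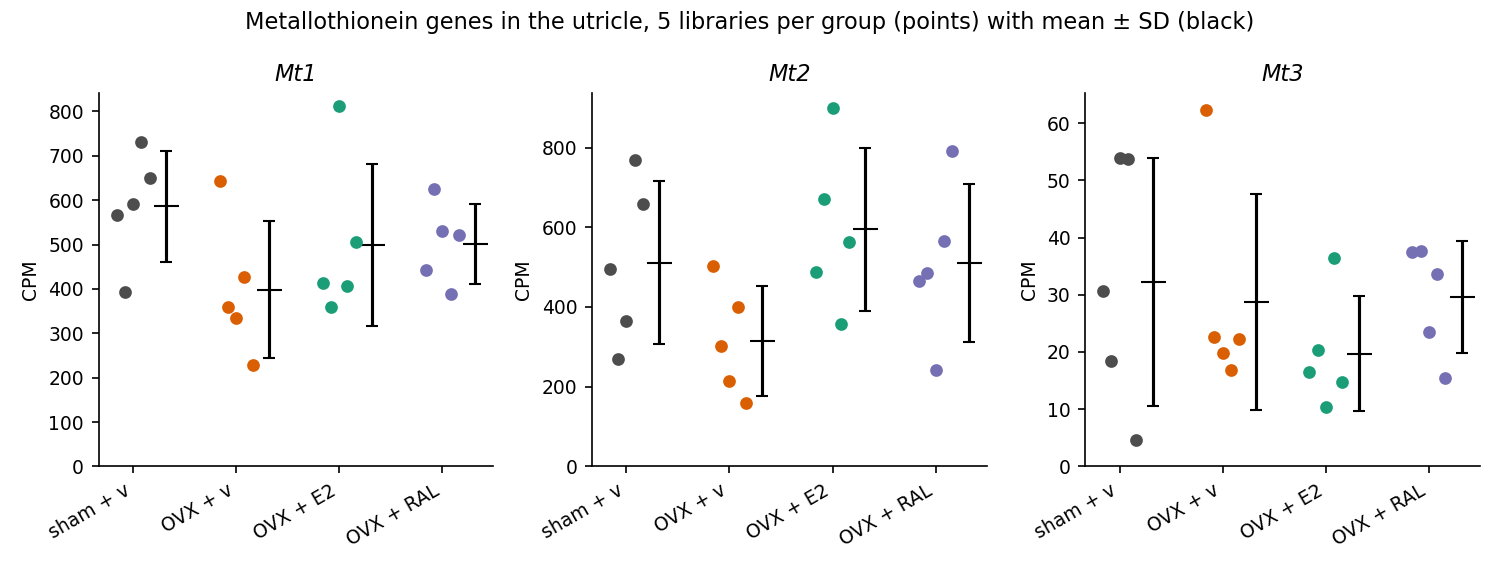
*Mt1*, *Mt2* and *Mt3* in CPM (y axis, from 0, on a scale of its own in each panel) in the 4 groups (x axis). Points are the 5 libraries of a group and black bars its mean ± SD. The groups overlap for every gene, with the lowest mean in OVX + v for *Mt1* (399 CPM) and *Mt2* (315 CPM) and in OVX + E2 for *Mt3* (19.7 CPM).

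Setting sham + v against OVX + v addressed the loss of the ovaries. *Mt1* was 1.47 times and *Mt2* 1.62 times as high in the mean CPM of the sham + v group, and 2 of its 5 libraries lay above all OVX + v libraries for each of these genes. The *Mt1* log2 fold change was 0.56 (SE 0.272, 95% interval 0.022 to 1.09), with an adjusted p of 0.363 by edgeR's quasi-likelihood test. For *Mt2* it was 0.70 (SE 0.290, 95% interval 0.13 to 1.27), with the same adjusted p of 0.363. *Mt3* differed by 0.17 (95% interval -2.27 to 2.60, adjusted p by edgeR 0.99980). No member passed the threshold, as did 2 of the 13825 genes tested (0.0145%). The unadjusted p-values of edgeR, 0.0411 for *Mt1* and 0.0159 for *Mt2*, were under 0.05, as were those of 12.5% of all genes tested. That share depended on the fit: it was 5.59% by DESeq2, with an unadjusted p of 0.0290 for *Mt1* and 0.0284 for *Mt2*, and 1.65% by edgeR on genes kept by its own filter on low counts (filterByExpr), with 0.0452 and 0.0367. The adjusted p-values by DESeq2 were 0.902 and 0.887, and those by edgeR after filterByExpr 0.99996 for both. In exact permutation tests of log2(CPM + 1), two-sided and over all 252 groupings of 5 and 5 libraries (smallest possible p 0.00794), the difference was 0.61 for *Mt1* (p = 0.0714, 0.410 adjusted over the 6 pairs of groups) and 0.72 for *Mt2* (p = 0.127, adjusted 0.254). For *Mt3* it was -0.063, against the sign of the edgeR estimate (exact p = 0.921). Leaving out 1 library moved the difference of *Mt1* from 0.43 (without library 10 of OVX + v, exact p = 0.119) to 0.80 (without library 6 of OVX + v, exact p = 0.0238), with adjusted exact p-values from 0.0952 to 0.571. The groups overlapped for each member, and did not overlap for 0.499% of the genes tested. The 4 fibrocyte markers, led by *Coch*, summed to 12932, 6430, 6858, 6948 and 7657 CPM in sham + v libraries 1 to 5 and to 11119, 10074, 9277, 11296 and 7923 CPM in OVX + v libraries 6 to 10. The sums of 4 of the 5 sham + v libraries thus lay below all of OVX + v, and their part in the values of the members was not tested.

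With estradiol, *Mt2* was 1.89 times as high in mean CPM as in the OVX + v group, the largest such ratio of a member. Of its 5 libraries, 3 lay above every OVX + v library and 0 below, and *Mt2* ranked 42 among 13695 genes tested by its p-value. The log2 fold change of *Mt2* was 0.92 (SE 0.309, 95% interval 0.31 to 1.52), and its unadjusted p of 0.00297 became 0.351 on adjustment by edgeR's quasi-likelihood test. *Mt1* was 1.25 times as high, with a log2 fold change of 0.32 (SE 0.308, 95% interval -0.28 to 0.93, adjusted p by edgeR 0.99969) that was 0.078 without library 13 of OVX + E2, 0.18 without library 10 and 0.56 without library 6 of OVX + v. *Mt3* was at 0.686 of the OVX + v mean, with 3 of 5 libraries below every OVX + v library, but its log2 fold change of -0.54 had a 95% interval from -3.84 to 2.76. No member passed the threshold, which 8 genes passed (0.0584%), and 13.9% of the genes had an unadjusted p under 0.05. By DESeq2 that share was 6.05%, with a p of 0.0111 for *Mt2* (adjusted 0.471), and by edgeR after filterByExpr it was 1.78%, with a p of 0.00678 (adjusted 0.99984). The exact permutation test gave a difference of 0.97 for *Mt2* (p = 0.0397, adjusted 0.238), 0.34 for *Mt1* (p = 0.341) and -0.47 for *Mt3* (p = 0.341). The 2 groups overlapped for all 3 members, as they did for all but 0.832% of the genes tested. The 4 choroid plexus markers, led by *Ttr*, moved with these groups, summing to 628, 723, 337, 320.5 and 394 CPM in OVX + v libraries 6 to 10 and to 162, 183, 6.41, 277 and 102 CPM in OVX + E2 libraries 11 to 15, without overlap, and their part in the values of the members was not tested. They overlapped between all other pairs of groups (53.1 to 545 CPM in sham + v, 49.0 to 486 CPM in OVX + RAL). The 4 skeletal muscle markers summed to more in 4 of 5 OVX + v libraries (40.8 to 138 CPM, with 0 in library 10) than in any OVX + E2 library (0 to 31.2 CPM), and the 5 Schwann cell markers lay above all of OVX + v in 3 of 5 OVX + E2 libraries. The part of these markers was not tested either. TMM normalization, which moved the median log2 fold change of all genes here from -0.060 to -0.17, gave 0.81 for *Mt2* (adjusted p by edgeR 0.339). By limma on log2(CPM + 1) that median was -0.46. Fewer genes had a count in every OVX + E2 library (7427 to 9680) than in any OVX + v library (10004 to 10694). The part of this in the values of the members was not tested.

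With raloxifene, *Mt2* was 1.62 times as high in mean CPM as in the OVX + v group, with 2 of 5 libraries above all of OVX + v and library 18, at 241 CPM, well within its range. The *Mt2* log2 fold change was 0.69 (SE 0.288, 95% interval 0.13 to 1.26), with an unadjusted p of 0.0165 and an adjusted p of 0.402 by edgeR's quasi-likelihood test. *Mt1* was 1.26 times as high, with a log2 fold change of 0.33 (SE 0.275, 95% interval -0.21 to 0.87) and 0 libraries above all of OVX + v. Its log2 fold change was 0.18 without library 10 and 0.57 without library 6 of OVX + v. *Mt3* had similar means in these groups (1.03 times, log2 fold change 0.038, 95% interval -2.12 to 2.19). No member passed the threshold, which 4 of 14002 genes passed (0.0286%), and 12.1% of the genes had an unadjusted p under 0.05. By DESeq2 that share was 5.63%, with a p of 0.0220 for *Mt2* (adjusted 0.784), and by edgeR after filterByExpr it was 1.83%, with a p of 0.0392 (adjusted 1.0). Exact permutation tests gave 0.71 for *Mt2* (p = 0.127), 0.39 for *Mt1* (p = 0.190) and 0.14 for *Mt3* (p = 0.754). No member separated the groups, as 0.578% of the genes did. The astrocyte markers, almost all *Slc1a3*, summed to 786, 350.1, 226, 439 and 235 CPM in OVX + RAL libraries 16 to 20 and to 499 to 669 CPM in OVX + v, so that 4 of 5 OVX + RAL libraries lay below all of OVX + v and 1 above. The Schwann cell markers summed to more in 4 of 5 OVX + v libraries (2674 to 3199 CPM, with 1849 CPM in library 9) than in any OVX + RAL library (1902 to 2658 CPM). The part of these markers in the values of the members was not tested. The 3 comparisons share the OVX + v libraries, so the like direction of *Mt2* in them is not independent evidence, and leaving out 1 library at a time moved its log2 fold change between 0.50 and 0.93 for sham + v, 0.72 and 1.15 for OVX + E2, and 0.48 and 0.93 for OVX + RAL.

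Estradiol and raloxifene were given at different doses, so their groups are set side by side. *Mt2* stood at 595 ± 205 CPM with estradiol and 509.7 ± 198 CPM with raloxifene, and the log2 difference was 0.22 with a 95% interval from -0.37 to 0.82. Leaving out 1 library moved this difference from 0.027 (library 13 of OVX + E2) to 0.44 (library 20 of OVX + RAL). *Mt1* was at 499 and 501 CPM (log2 difference -0.0064, 95% interval -0.63 to 0.61). *Mt3* was at 19.7 and 29.5 CPM, a difference of -0.61 in log2(CPM + 1) (exact permutation p = 0.143, adjusted 0.857). The intervals of *Mt1* and *Mt2* leave room for differences of about the size seen against OVX + v. The Schwann cell markers summed to 2731, 4110, 4313, 4589 and 2277 CPM in OVX + E2 libraries 11 to 15, and 4 of these sums lay above all of OVX + RAL. The mucosal gland markers of 4 of 5 OVX + E2 libraries (0 to 19.6 CPM, with 231 CPM in library 11) lay below all of OVX + RAL (37.5 to 1738 CPM). Neuronal markers summed to less in 4 of 5 OVX + E2 libraries (67.7 to 179 CPM, with 233 CPM in library 12) than in any sham + v library (209 to 270.3 CPM). The part of these 3 lists in the values of the members was not tested. Against sham + v, the *Mt2* log2 differences were 0.22 for OVX + E2 (95% interval -0.38 to 0.82, and 0.022 to 0.41 with 1 library left out) and -0.0045 for OVX + RAL (95% interval -0.57 to 0.56), and those of *Mt1* were -0.23 for each (95% intervals -0.84 to 0.37 and -0.77 to 0.32). Leaving out 1 library moved the *Mt1* difference from -0.48 (library 13 of OVX + E2) to -0.13 (library 12 of OVX + E2) for estradiol, and from -0.34 (library 2 of sham + v) to -0.13 (library 4 of sham + v) for raloxifene. *Mt3* gave -0.71 and -0.13, with intervals wider than 4 log2 units. The first of these ran from -1.05 to -0.44 with 1 library left out. No member passed the threshold in these 3 comparisons, where 0.0727% (OVX + E2 against OVX + RAL), 0.0222% (OVX + E2 against sham + v) and 0.0648% (OVX + RAL against sham + v) of the genes did.

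**Figure D2:**
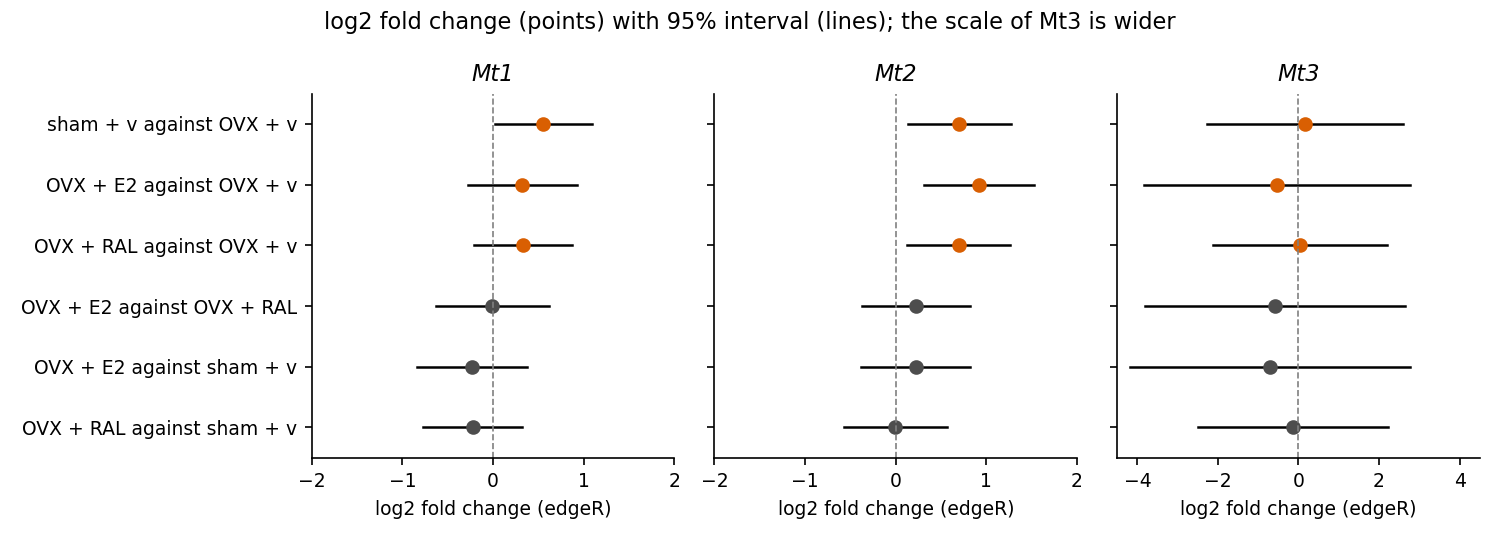
Log2 fold change by edgeR (x axis) of each member in the 6 comparisons of groups (y axis), with points for the estimate, lines for the 95% interval and orange for comparisons with OVX + v. The intervals of *Mt2* lie above 0 in all 3 comparisons with OVX + v (0.70, 0.92 and 0.69) before adjustment over all genes, that of *Mt1* only for sham + v (0.56), and those of *Mt3* span several log2 units.

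Within a library, the counts of *Mt2* and *Mt1* can be set against each other without regard to depth. *Mt2* counts exceeded *Mt1* counts in 0 of 5 OVX + v libraries, where the ratio of *Mt2* to *Mt1* was 0.780, 0.838, 0.639, 0.936 and 0.693. In the OVX + E2 group the ratio was 1.18, 1.87, 1.11, 0.877 and 1.11, so that *Mt2* exceeded *Mt1* in 4 of 5 libraries. It did so in 2 of 5 sham + v libraries (ratio 0.616 to 1.05, median 0.874) and in 3 of 5 OVX + RAL libraries (0.454 to 1.52, median 1.05). These ratios are given as a description, and the ranges of OVX + v and OVX + E2 overlapped through library 9 of the former and library 14 of the latter.

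*Mt1* and *Mt2* varied together across the 20 libraries, and no relation of *Mt3* with either passed the threshold. For log2(CPM + 1) of *Mt1* and *Mt2*, Pearson's r was 0.68 (permutation p = 0.000800, 0.00480 adjusted over 6 relations) and Spearman's rho 0.55 (p = 0.0130, adjusted 0.0781). Without library 10 of OVX + v and library 13 of OVX + E2, the 2 farthest from the median of *Mt1*, r was 0.46 (permutation p = 0.0558), so that its passing the threshold rests on these libraries, the lowest and highest for both genes. Since they were left out as the extremes of *Mt1*, a lower r was to be expected. After removal of the group means, r was 0.65. *Mt3* gave r = 0.044 and rho = 0.12 with *Mt1* (permutation p = 0.855 and 0.619) and r = -0.14 and rho = -0.22 with *Mt2* (permutation p = 0.550 and 0.360). No relation of a member with depth passed it (r with the log2 library total 0.070 for *Mt1*, -0.026 for *Mt2* and 0.21 for *Mt3*, each with an adjusted permutation p of 0.914).

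**Figure D3:**
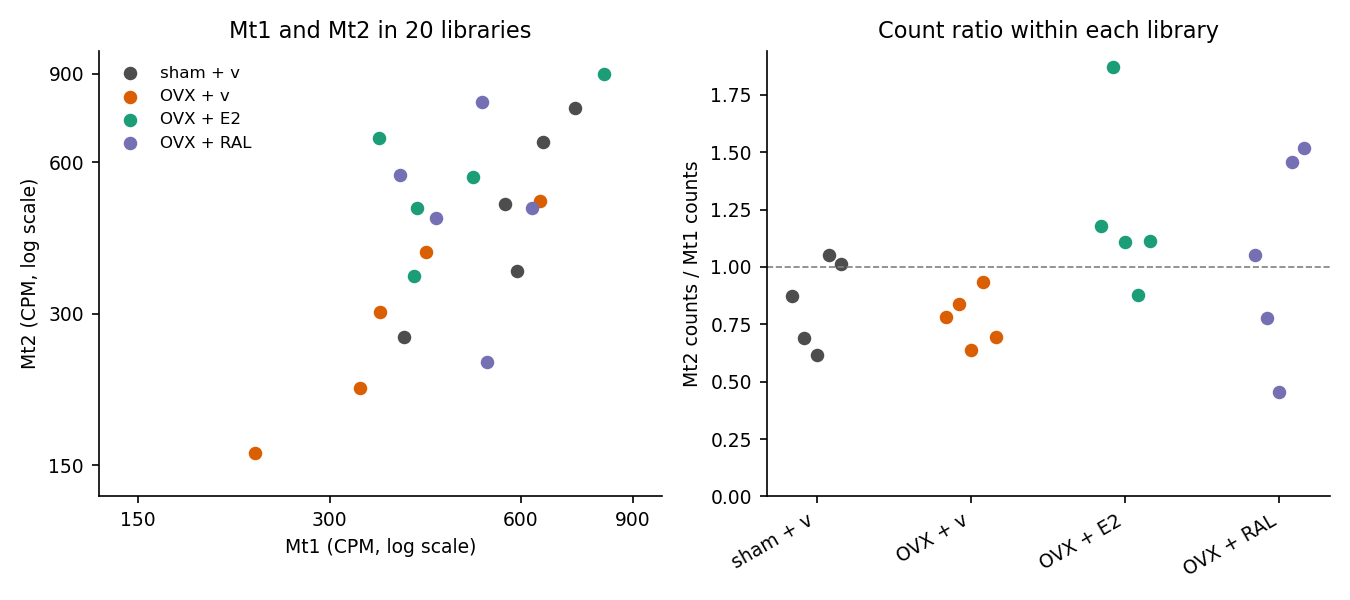
Left, *Mt2* against *Mt1* in CPM on log scales, 1 point per library, coloured by group. Right, the ratio of *Mt2* to *Mt1* counts in each library by group, with a dashed line at 1. The points rise together at left (r = 0.68), and at right 0 of 5 OVX + v and 4 of 5 OVX + E2 libraries lie above the line.

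Among 2233 genes with at least 10 counts in every library, *Mt2* was the second most like *Mt1* by Pearson's r of log2(CPM + 1) over the 20 libraries, and *Mt1* the most like *Mt2*. The genes most like *Mt1* were *Drap1* (r = 0.76), *Mt2* (0.68), *Sorbs2* (0.67), *Hpf1* (0.67) and *Otol1* (0.64), the last of which encodes otolin, a collagen-like matrix protein of otoconia. Those most like *Mt2* were *Mt1* (0.68), the DNA topoisomerase *Top1* (0.68), the interleukin receptor subunit *Il11ra1* (0.63), *Sod2* (0.62), the superoxide dismutase of mitochondria, and *Sdhc* (0.62), a subunit of succinate dehydrogenase. *Mt3* was followed by the splicing factor *Srsf1* (0.70), *Rab1a* (0.69), *Stmn1* (0.68), *Ankrd40* (0.67) and *Fuca1* (0.66), while *Mt1* ranked 911 and *Mt2* 1559 in likeness to it. These coefficients are the highest of many, come from libraries that share groups and depth, and are a description.

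Genes that handle the same metals or answer the same inducers were read from the same fits, as 59 genes in 6 lists. None of the genes tested passed the threshold in any of the 6 comparisons by edgeR. Against OVX + v, 2 of 56 had an unadjusted p under 0.05 in sham + v, 5 of 56 in OVX + E2 and 4 of 55 in OVX + RAL, where 12.5%, 13.9% and 12.1% of all genes did. These shares rest on the fit: by DESeq2 the counts were 1 of 51, 2 of 53 and 1 of 52 (5.59%, 6.05% and 5.63% of all genes), and by edgeR after filterByExpr 1 of 43, 1 of 44 and 1 of 46 (1.65%, 1.78% and 1.83%). The median log2 fold change of the lists together was 0.11, 0.025 and -0.12 in these comparisons, beside -0.023, -0.060 and -0.033 for all genes, and that of OVX + E2 became -0.099 with TMM normalization, beside -0.17. Genes with 0 counts in 1 of the groups were also placed at the bound set by 3 counts per library. They were left out where the mean of the other group did not exceed that bound. This moved 1 list median by more than 0.01 here, that of the copper genes in OVX + RAL, from -0.25 to -0.37. The move came from leaving out *Atp7b*, at 1.44 CPM in OVX + RAL beside a bound of 1.81 CPM in OVX + v.

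Among the regulators no gene passed the threshold. *Stat3*, which carries cytokine signals to metallothionein genes, averaged 148 ± 95.4, 124 ± 44.1, 165 ± 84.4 and 161 ± 95.6 CPM (SD, n = 5) in the 4 groups. *Nfe2l2*, which drives the response to oxidative stress, averaged 88.5, 87.6, 82.3 and 87.1 CPM in the same order. *Nr3c1*, the glucocorticoid receptor, averaged 68.6 ± 73.4, 51.0 ± 29.6, 41.1 ± 55.0 and 35.8 ± 33.2 CPM. *Mtf1*, the metal sensor itself and named here outside the rule of selection, averaged only 22.2, 24.6, 8.86 and 28.9 CPM, with a count in 14 of 20 libraries and nearly all counts of OVX + E2 in library 15, so that its log2 fold change of -1.46 in OVX + E2 against OVX + v had an SE of 2.06. The 4 regulators had a median of 0.13 in sham + v, -0.20 in OVX + E2 and 0.11 in OVX + RAL against OVX + v.

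The zinc exporters of the Slc30a family and the zinc importers of the Slc39a family had 9 and 12 members tested in the comparisons of sham + v and OVX + E2 with OVX + v. The median of the exporters was 0.34 in sham + v, -0.19 in OVX + E2 and, over 8 genes, -0.24 in OVX + RAL, and that of the importers was -0.24, 0.021 (-0.076 with TMM) and 0.17. *Slc39a1*, the most abundant of the importers, averaged 179 ± 85.3, 170.2 ± 75.9, 233 ± 95.4 and 191 ± 60.3 CPM in the 4 groups, within the spread of the libraries. *Slc30a9* averaged 61.9 ± 24.1 CPM in sham + v and 46.5 ± 20.6 CPM in OVX + v, and *Slc30a7* 12.1 ± 15.2 and 40.3 ± 25.0 CPM. *Slc30a4*, which loads zinc into vesicles, averaged 58.9 ± 46.8, 20.2 ± 24.1, 30.5 ± 50.6 and 3.26 ± 5.78 CPM in the 4 groups. It was at 0 to 110.1 CPM in sham + v and 0 to 13.5 CPM in OVX + RAL libraries, a log2 fold change of -4.14 (SE 1.39, unadjusted p 0.00321, adjusted p by edgeR 0.358). Leaving out 1 library moved this value from -6.26 (library 20 of OVX + RAL) to -3.79 (library 5 of sham + v). The unadjusted p was 0.0155 by edgeR after filterByExpr and 0.0671 by limma on log2(CPM + 0.1). *Slc39a10* averaged 22.2 ± 10.6 CPM in sham + v and 52.5 ± 38.2 CPM in OVX + v. *Slc39a9* lay between 42.8 CPM (sham + v) and 71.2 CPM (OVX + RAL) in mean. A further 3 rare genes had no count in a whole treated group. *Slc30a3*, which fills synaptic vesicles with zinc, had 0 counts in OVX + E2 and OVX + RAL, beside 20.3 CPM in library 9 and 0 to 3.11 CPM in the other 4 libraries of OVX + v. *Slc39a5* had 0 counts in OVX + E2 beside 0 to 13.7 CPM in OVX + v libraries, and *Slc39a2* 0 counts in OVX + RAL beside 40.2 CPM in 1 OVX + v library and 0 in the other 4.

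Of the copper genes, *Sod1*, the copper and zinc superoxide dismutase of the cytosol, was the most abundant and the most even, with 996 ± 77.3, 934 ± 199, 934 ± 151 and 848 ± 189 CPM. Its log2 fold change against OVX + v was 0.093 (SE 0.211) in sham + v, 0.00090 (SE 0.218) in OVX + E2 and -0.14 (SE 0.225) in OVX + RAL. *Cox17*, a copper chaperone of cytochrome c oxidase, averaged 336 ± 72.9, 338 ± 126, 393 ± 156 and 435 ± 322 CPM. *Atp7a*, the copper exporting ATPase, was at 12.3 to 54.9 CPM in OVX + RAL and 41.1 to 137 CPM in OVX + v (log2 fold change -1.50, SE 0.723, adjusted p by edgeR 0.402). *Atp7b* was rare, with 0 counts in OVX + v and counts in 1 library of each other group.

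The glucocorticoid targets had the largest list median against OVX + v, 0.41 in sham + v, with 8 of 12 genes above 0. In OVX + E2 it was 0.11, which became -0.016 with TMM normalization, and in OVX + RAL -0.048. *Ddit4*, a stress-induced inhibitor of mTOR signalling, was at 151, 260, 73.5, 41.9 and 265 CPM in sham + v libraries 1 to 5 and at 90.3, 66.5, 64.1, 61.9 and 39.0 CPM in OVX + v libraries 6 to 10. Its log2 fold change was 1.30 (SE 0.517, adjusted p by edgeR 0.363), and 3 of the 5 sham + v libraries lay above all OVX + v libraries. In OVX + E2 *Ddit4* averaged 154 ± 166 CPM (SD, n = 5), with 442 CPM in library 13. Its log2 fold change against OVX + v there, 1.26 (SE 0.639, adjusted p by edgeR 0.356), rested on this library and was 0.35 without it. In OVX + RAL it averaged 90.1 ± 36.7 CPM (0.48, SE 0.563, or 0.32 without library 17). *Cdkn1a*, the cell cycle inhibitor p21, was at 229, 359, 280, 121 and 133 CPM in OVX + E2 libraries 11 to 15 and at 180.0, 102, 31.7, 105 and 53.0 CPM in OVX + v libraries 6 to 10. The *Cdkn1a* log2 fold change was 1.25 (SE 0.510, adjusted p by edgeR 0.351). It averaged 165 ± 81.2 CPM in sham + v (log2 fold change against OVX + v 0.81, SE 0.471) and 158 ± 75.1 CPM in OVX + RAL (0.74, SE 0.437), with adjusted p-values by edgeR of 0.620 and 0.633. The value for OVX + RAL was 0.44 without library 17 of OVX + RAL and 1.11 without library 6 of OVX + v. *Klf9* averaged 428 ± 118, 353 ± 114, 393 ± 116 and 344 ± 70.9 CPM.

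The targets of the oxidative stress response had median log2 fold changes against OVX + v of -0.046 for sham + v, 0.089 for OVX + E2 (-0.039 with TMM) and -0.23 for OVX + RAL. *Slc7a11*, which imports cystine for glutathione, averaged 156 ± 44.8, 179 ± 107, 91.5 ± 42.4 and 123 ± 25.6 CPM in the 4 groups. *Txnrd1*, the cytosolic thioredoxin reductase, averaged 72.6, 56.0, 83.5 and 64.5 CPM in that order. *Nqo1*, a quinone reductase, was rare, with 24.4 CPM in library 1 of sham + v and 0 in the other 4, and 70.9 CPM in library 7 of OVX + v and 0 to 18.1 CPM in the other 4. None of these differences passed the threshold.

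**Figure D4:**
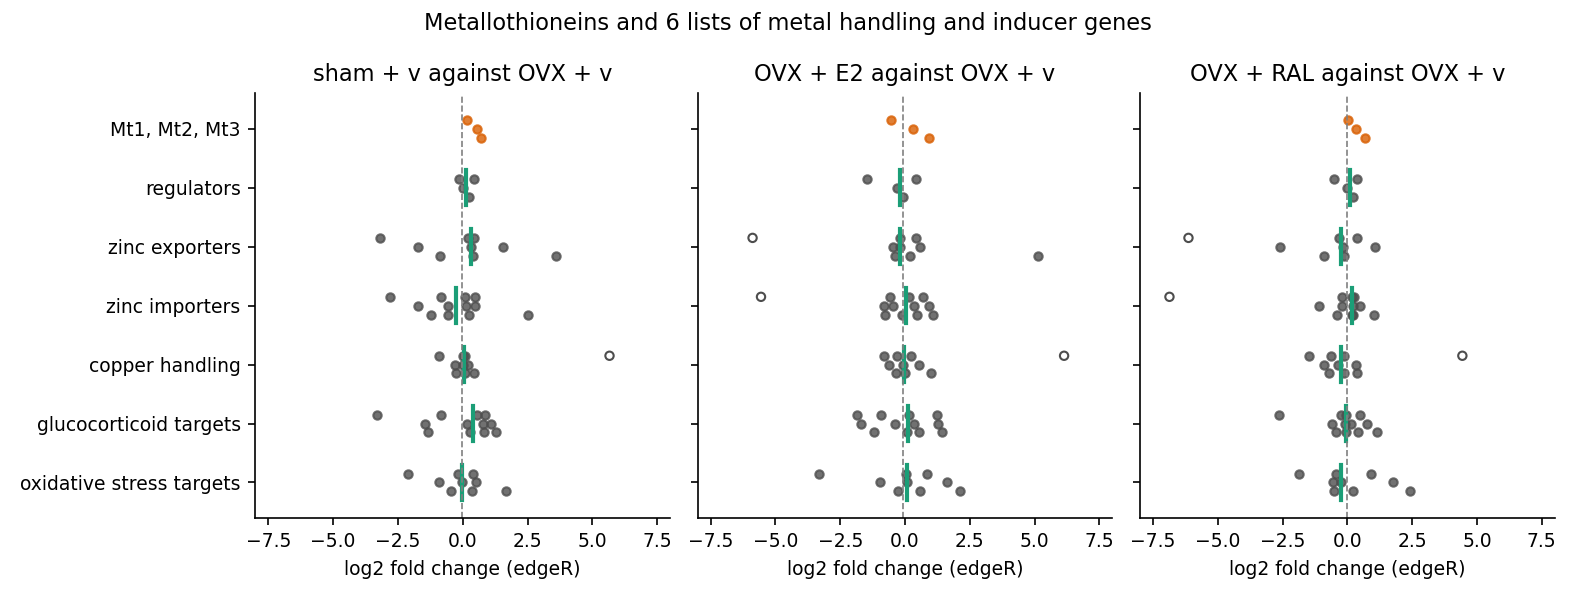
Log2 fold change by edgeR (x axis) of the 3 members (orange) and of the genes of 6 lists (grey) in the 3 comparisons with OVX + v. Open circles are genes with 0 counts in 1 of the 2 groups, whose fitted value is no measure of size, green bars are list medians and the dashed line is the median of all genes. The list medians lie between -0.25 and 0.41, and no gene shown passed the threshold.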

How the data were processed

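RNA of mouse utricles was prepared with a 3′ mRNA sequencing kit (QuantSeq) from 1 ng of total RNA and read for 75 cycles. The authors trimmed adaptors and low-quality ends, dropped the first 12 nucleotides and any read left shorter than 20, and mapped to GRCm39 (annotation release 105) in CLC Genomics Workbench, whose version and use of strand are not given in the sources used here. The deposited total counts are raw counts of reads per gene, and only these were used. The deposited CPM, TPM and RPKM columns, and the authors' own comparisons (fold changes, p-values and p-values adjusted by FDR or Bonferroni), were not used. One file holds 3 tables, of which the first was read, and there were 0 columns of samples outside the series.

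Groups were taken from the labels. Each pair of groups was fitted alone, over its 10 libraries, with edgeR 4.0.16 in R 4.3.3 (glmQLFit and glmQLFTest). The library size was the total count, without TMM factors, and genes with at least 10 counts in sum were tested. P-values were adjusted by Benjamini-Hochberg over all genes tested, with a threshold of 0.05. Log2(CPM + 1) of each member was compared by exact permutation tests (scipy 1.17.1), two-sided, adjusted over the 6 pairs of groups. Relations across libraries used 100000 permutations. A floor of 3 counts per library stands for 0 counts. The fits were run on simulated counts with a uniform dispersion and with changes larger than those of the members. That check does not cover changes as small as those seen here.

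*Mt1*, *Mt2*, *Mt3* and *Mt4* were always named. Of each list of related genes, the rule named the 2 highest in mean CPM and the 1 with the smallest p in each comparison with OVX + v, besides any gene past the threshold, and of the most like genes the first 5. The members and lists were chosen with earlier results of these data known. The alternatives were TMM normalization, DESeq2 1.42.0, no filter, the filterByExpr filter, limma 3.58.1 on log2(CPM + 1) and log2(CPM + 0.1), all 4 groups in 1 fit, robust dispersions, a pseudocount of 0.1 or TMM-scaled CPM in the exact tests, and leaving out each library in turn. Transcript windows and gene overlaps came from GENCODE vM39 on GRCm39.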

Additional observations from a re-analysis of the deposited data

Results flagged for a closer look

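In OVX + v, library 6 had 62.3 CPM of *Mt3*, while the other 4 libraries of that group had 16.8 to 22.6 CPM. Its distance to the nearest of them was 0.874 of the range of the group, above the critical value of Dixon's test for 5 samples (0.71). It was 1 of 12 groups of 5 libraries examined (3 genes in 4 groups), and chance flags about 1 in 20. The same library also had the highest *Mt1* (643 CPM) and *Mt2* (502 CPM) of its group and the highest summed neuronal markers of the series (396 CPM), while its summed astrocyte markers (669 CPM) lay near those of the others in its group (499 to 661 CPM), a sum that is mostly *Slc1a3*. The part of these markers in the value of *Mt3* was not tested. Without this library the log2 fold change of *Mt3* was 0.66 for sham + v, -0.048 for OVX + E2 and 0.53 for OVX + RAL against OVX + v, with adjusted p-values by edgeR above 0.999 in each.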

How the results depend on the processing

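No member passed the threshold in 108 alternative fits, where the lowest adjusted p was 0.363 for *Mt1*, 0.325 for *Mt2* and 0.894 for *Mt3*, and over the same fits 0 genes of the 6 lists had an adjusted p past it (lowest 0.207, *Slc30a4* in OVX + RAL against sham + v without library 20 of OVX + RAL). With all libraries kept, 138 of 144 alternative log2 fold changes and 35 of 36 alternative exact test differences kept the direction, among them every one of *Mt1* and *Mt2* against OVX + v. The exceptions were small values: *Mt3* in sham + v against OVX + v (-0.063 and -0.090 in limma with pseudocounts of 1 and 0.1), and, in OVX + RAL against sham + v, *Mt3* (0.20 and 0.23 in limma) and *Mt2* (0.083 with TMM, 0.028 with DESeq2, and 0.073 in the exact test on TMM-scaled CPM). The r of *Mt2* with the library total became 0.054 on TMM-scaled CPM. The cause of these changes was not tested. Leaving out 1 library at a time changed the sign of 23 of 180 log2 fold changes and 14 of 180 exact test differences. The log2 fold changes that did so ranged from -0.10 to 0.66 (*Mt3*, sham + v against OVX + v), -0.10 to 0.53 (*Mt3*, OVX + RAL against OVX + v), -0.25 to 0.091 (*Mt1*, OVX + E2 against OVX + RAL), -0.22 to 0.19 (*Mt2*, OVX + RAL against sham + v) and -0.41 to 0.14 (*Mt3*, the same pair). The exact test differences of these 5 ranged from -0.34 to 0.48, -0.0063 to 0.45, -0.24 to 0.050, -0.21 to 0.24 and -0.34 to 0.48. Genes past the threshold numbered 2 (0 to 12 under other settings) in sham + v, 8 (1 to 38) in OVX + E2 and 4 (0 to 5) in OVX + RAL against OVX + v, 10 (0 to 42) in OVX + E2 against OVX + RAL, and 3 (0 to 23) in OVX + E2 and 9 (0 to 17) in OVX + RAL against sham + v. The counts against OVX + v were highest without sham + v library 1 (10), OVX + E2 library 11 (17) and OVX + RAL library 16 (11) when 1 library was left out. For *Mt3*, at 7 to 100 counts, the SE of the log2 fold change was 1.09 to 1.77 by edgeR and that of the difference in log2(CPM + 1) 0.372 to 0.690. No paired analysis was possible because the groups share no replicate number.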
